A study of Mus musculus with 4 samples.

Results

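Regions with a peak in the library SAT 2 and in exactly 2 of the 3 other libraries of the series are described here. They are places on the autosomes where accessible chromatin was called in 3 of 4 libraries and 1 library other than SAT 2 had no peak. There were 913 such regions among 83319 merged regions of all chromosomes, of which 80820 lay on autosomes. They were found by merging the peaks of the 4 lists wherever these overlapped by at least 1 bp. The regions were chosen by the presence of peaks in the deposited lists, so their counts, widths and peak scores are descriptions with no test. Regions of 1 genome are also not replicates of a condition.

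The cells were adipose progenitors, the mesenchymal precursors in fat tissue from which new adipocytes form. They were freshly isolated and untreated, from C57BL/6 mice aged 16 weeks. The groups were subcutaneous fat (SAT 1 and SAT 2) and visceral fat (VAT 1 and VAT 2), with 2 libraries each, and the labels leave unsaid whether both libraries of a depot represent different animals or pools. Each library was assayed by ATAC-seq and has 1 list of peaks on build mm9.

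ATAC-seq uses a transposase that inserts sequencing adapters where DNA is free of nucleosomes, and a peak marks a place where many insertions pile up. Promoters and enhancers are the usual sources of such peaks, and enhancers are the elements that differ most between cell types. A caller sets a limit below which a site is not listed, so a region without a peak in 1 library is not thereby shown to be closed there.

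The lists held 56823 peaks in SAT 1, 22845 in SAT 2, 56907 in VAT 1 and 62279 in VAT 2. SAT 2 thus stood apart by its short list, and every region described here has a peak in it. All lists ended at the same lowest score of 20. The lists carry no read counts, so depth is unknown. An annotation and a sequence of build mm9 were not used here, so regions are given by position, nearby genes are not named, and the labelled cell type was not checked against its markers.

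Most autosomal regions with a SAT 2 peak had a peak in every other library as well, 18734 of 20586, or 91.0%. The 913 regions that lacked 1 other library made up 4.44% of the 20586, and 1.13% of all autosomal merged regions. No peak of SAT 1 was present in 381 of them, or 1.85% of the regions with a SAT 2 peak (95% Clopper-Pearson interval 1.67% to 2.04%, counting error only, as for all intervals here). VAT 1 was the missing library in 361 regions, or 1.75% (1.58% to 1.94%). VAT 2 was missing in 171 regions, or 0.831% (0.711% to 0.964%). By comparison, 15746 regions lacked SAT 2 alone.

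The subcutaneous library SAT 1 and the visceral library VAT 1 were thus missing about equally often, although 1 comes from the same depot as SAT 2 and the other does not. Every region chosen by the rule has a peak in both depots, and regions absent from a whole depot are left out. These counts therefore cannot show whether missing peaks divide by depot. VAT 2, which has the longest list, was missing least often. This order depended on how peaks were matched and on the presence of SAT 2. With SAT 2 left out, the regions with a peak in all but 1 of the remaining libraries numbered 7818 without VAT 2, 4337 without VAT 1 and 4116 without SAT 1. When a SAT 2 peak and another peak had to cover at least 50% of each other, VAT 2 became the most frequently missing library, with 1808 SAT 2 peaks against 889 for SAT 1 and 838 for VAT 1. With 200 bp around each peak centre the 3 counts lay close together, at 450 for SAT 1, 439 for VAT 1 and 416 for VAT 2.

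Lists of equal length changed the order as well. With the 22845 highest-scoring peaks of each list, 874 regions lacked SAT 1, 977 lacked VAT 1 and 875 lacked VAT 2. In that setting a missing peak mostly meant a lower rank. The full list of the missing library held a peak in 862 of the 874, in 960 of the 977 and in 837 of the 875. This left 12 regions with no SAT 1 peak at all, 17 with no VAT 1 peak and 38 with no VAT 2 peak. In this setting, VAT 2 was therefore the library that most often had no peak of any rank. SAT 2 kept its whole list here, so only the peaks of the other libraries were limited to high ranks. The 38 include the 8 strongest regions lacking VAT 2, which are described below and partly lie together.

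Regions lacking 1 library were most frequent where the SAT 2 peak was weak. Strength is given as a percentile of the score of the authors' peak caller within its list, since the scale of the score is not stated. For SAT 2 scores up to the percentile of 20, 4.58% of 3689 regions lacked only SAT 1, 4.17% lacked only VAT 1 and 1.82% lacked only VAT 2. Between the percentiles of 40 and 60 the shares were 1.64% for SAT 1, 1.64% for VAT 1 and 0.706% for VAT 2. The share for SAT 1 went on falling, to 0.512% between the percentiles of 60 and 80 and to 0.114% (0.0369% to 0.265%) above 80.

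The share for VAT 2 did not fall in the same way at the top. It was 0.279% (0.144% to 0.487%) between the percentiles of 60 and 80, from 12 regions, and 0.25% (0.125% to 0.447%) above 80, from 11 regions. Above the percentile of 80, VAT 2 was missing in 11 regions, SAT 1 in 5 and VAT 1 in 6, so the order of the libraries was the opposite of that among weak peaks. These counts are small and their intervals overlap. Most of the 11 regions without VAT 2 lay at a few places on chromosomes 8, 11, 13 and 15, described below. Neighbours there were counted as separate regions, and few of the 11 lay elsewhere.

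**Figure D1:**
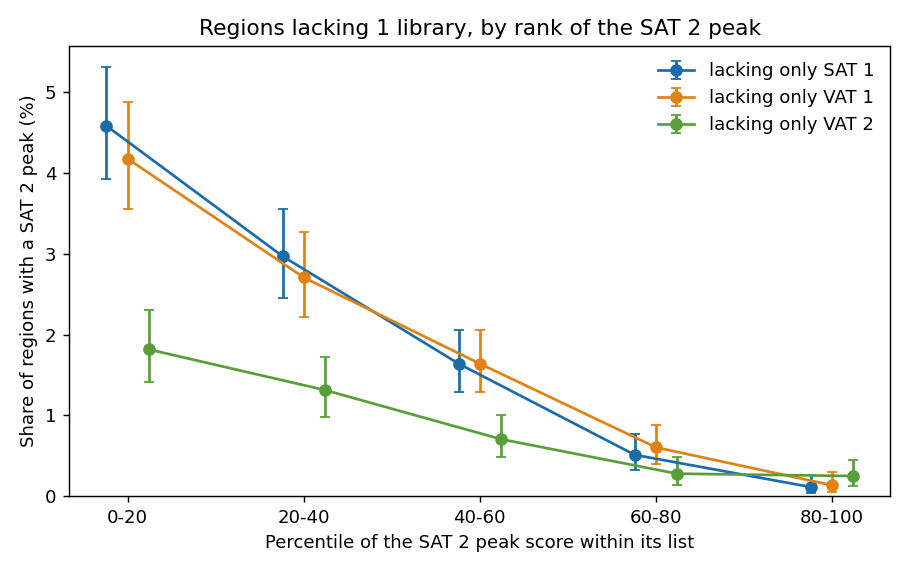
Share of autosomal regions with a SAT 2 peak that lacked only SAT 1, only VAT 1 or only VAT 2 (y axis, in %), by the percentile of the SAT 2 score within its list (x axis, 5 bins); bars are 95% Clopper-Pearson intervals. The shares for SAT 1 and VAT 1 fall from above 4% to below 0.2%, while that for VAT 2 starts at 1.82% and ends at 0.25%.

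The regions were narrow. The median width was 270 bp (quartiles 204 and 360 bp) for regions lacking SAT 1 and 259 bp (200 and 352 bp) for those lacking VAT 1. Regions lacking VAT 2 were narrower, with a median of 226 bp (178 and 296.5 bp). The order-statistic 95% interval of the median was 258 to 289 bp without SAT 1, 246 to 275 bp without VAT 1 and 214 to 243 bp without VAT 2. Regions with peaks in all 4 libraries were wider, with a median of 528 bp, and those lacking only SAT 2 had a median of 305 bp. Regions under 200 bp made up 23.4% of those lacking SAT 1, 24.7% of those lacking VAT 1 and 36.3% of those lacking VAT 2, against 2.15% of the regions found in all libraries.

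The width of a merged region follows the widest peak in it. In the regions described here that was usually a VAT 2 peak where there was one. For background, the VAT 2 peak was the widest in 51.0% of regions found everywhere and in 38.8% of those lacking only SAT 2. These 2 backgrounds set VAT 2 against both SAT 1 and VAT 1. Regions lacking SAT 1 or VAT 1 set it against only 1 of these and SAT 2, so the shares are not like for like. In regions lacking SAT 1 the VAT 2 peak was the widest in 266 of 381 (69.8%), with a median of 234 bp against 158 bp for VAT 1 and 125 bp for SAT 2. In regions lacking VAT 1 it was the widest in 259 of 361 (71.7%), with medians of 224 bp for VAT 2, 140 bp for SAT 1 and 129 bp for SAT 2. Where VAT 2 was missing, the peaks of VAT 1 (182 bp) and SAT 1 (169 bp) had similar medians and that of SAT 2 was again lower (123 bp). The stretch covered by all 3 peaks had nearly the same length in these 3 kinds of region. Its median was 100 bp without SAT 1, 98.0 bp without VAT 1 and 101 bp without VAT 2, over regions with 1 peak in each library. For the same 3 libraries it was 211, 210 and 207 bp in regions found everywhere.

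**Figure D2:**
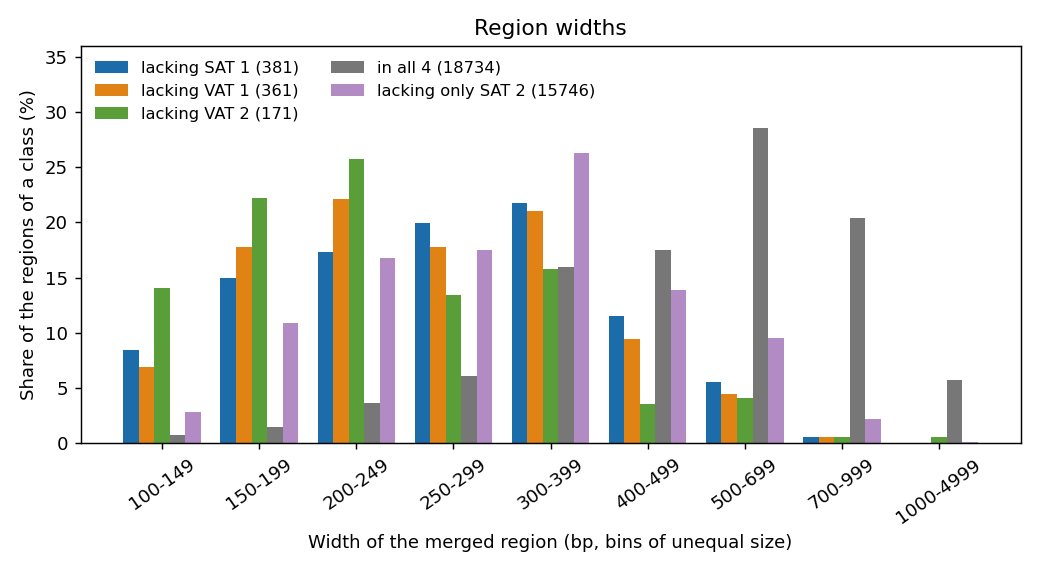
Share of the regions of each kind (y axis, in %) by width of the merged region (x axis, in bp, bins of unequal size), with the number of regions in brackets. The regions lacking SAT 1, VAT 1 or VAT 2 lie mostly below 400 bp, whereas regions in all 4 libraries have a median of 528 bp.

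The peaks of these regions stood lower in their lists than those of regions found everywhere, whose median percentiles were 80.5 in SAT 1, 80.6 in VAT 1 and 83.6 in VAT 2. The SAT 2 peak had the same median percentile of 23.6 in all 3 kinds of region, against 55.6 in regions found in all libraries. In regions lacking SAT 1, the median percentile was 29.0 in VAT 1 and 53.9 in VAT 2. In regions lacking VAT 1, it was 30.0 in SAT 1 and 55.0 in VAT 2. In regions lacking VAT 2, SAT 1 stood at 50.6 and VAT 1 at 48.1. When SAT 1 or VAT 1 was missing, the other of this pair was thus low as well, whereas VAT 2 stood near the middle of its list.

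Region by region the same order held. Among regions lacking SAT 1, the VAT 1 peak ranked below the VAT 2 peak in 290 of 381 (76.1%, 71.5% to 80.3%), although both come from visceral fat. Among regions lacking VAT 1, the SAT 1 peak ranked below the VAT 2 peak in 274 of 361 (75.9%, 71.1% to 80.2%). In regions found in all libraries these shares were 60.9% and 60.8%. Among regions lacking VAT 2, SAT 1 ranked below VAT 1 in 82 of 171 (48.0%, 40.3% to 55.7%), an even division. SAT 1 and VAT 1 carry the replicate number 1 and SAT 2 and VAT 2 the number 2. The labels do not say whether that number stands for a batch, and its part in this order was not tested.

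**Figure D3:**
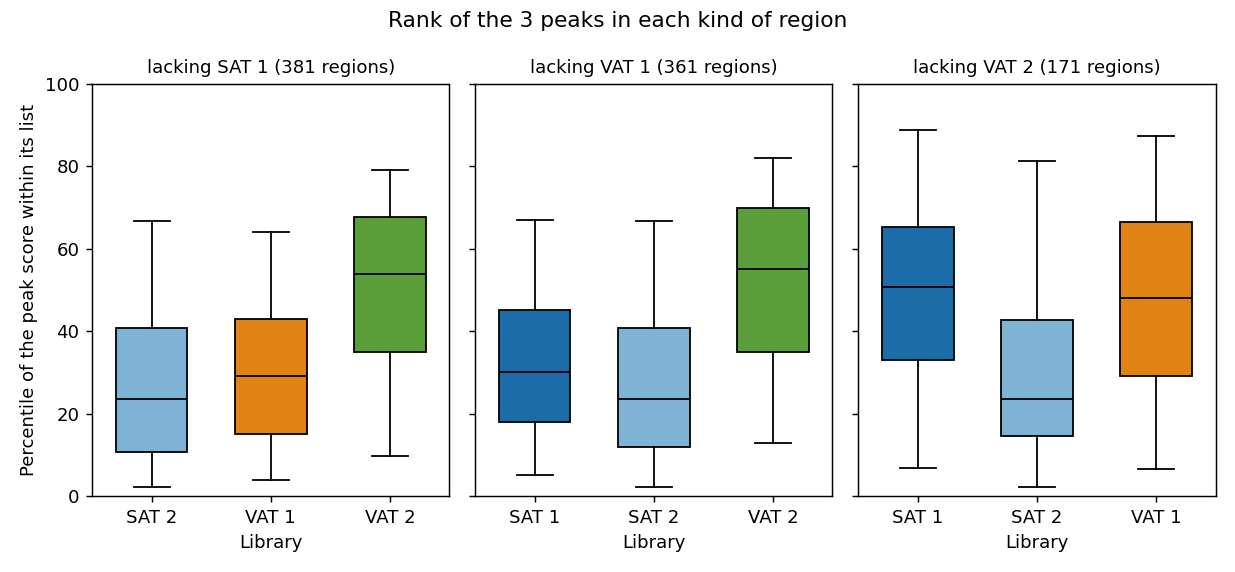
Percentile of the peak score within its list (y axis) in each library that holds a peak (x axis), for the 3 kinds of region; boxes are quartiles with the median and whiskers reach the percentiles 5 and 95 of the regions. VAT 2 stands highest in the left and middle panels (medians 53.9 and 55.0), and SAT 1 and VAT 1 stand together at 50.6 and 48.1 in the right panel.

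The weakest of the 3 peaks gives the strength of a whole region. Its median percentile was 14.6 without SAT 1, 15.04 without VAT 1 and 18.4 without VAT 2, against 52.7 over the 4 peaks of regions found everywhere. All 3 peaks reached the percentile of 50 in 13 of 381 regions lacking SAT 1 (3.41%), 13 of 361 lacking VAT 1 (3.60%) and 19 of 171 lacking VAT 2 (11.1%). All 3 reached the percentile of 80 in 0 regions lacking SAT 1, 0 lacking VAT 1 and 5 lacking VAT 2 (2.92%). For background, the weakest peak reached the percentile of 50 in 52.7% of regions found everywhere and in 21.8% of those lacking only SAT 2. It reached the percentile of 80 in 20.6% and 0.883% of them.

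Just outside the rule lie regions found in all libraries whose peak in 1 library is among the lowest 5% of its list. There were 47 of these for SAT 1, with SAT 1 scores of 23 to 37 and a median width of 311 bp. Their SAT 2 peaks had a median percentile of 14.6, their VAT 1 peaks of 29.0 and their VAT 2 peaks of 53.6, against 23.6, 29.0 and 53.9 in the regions without a SAT 1 peak. There were 73 such regions for VAT 1 and 30 for VAT 2, with median widths of 326 and 293.5 bp. Just inside the rule, a SAT 2 score under 30 occurred in 8 regions lacking SAT 1, 5 lacking VAT 1 and 2 lacking VAT 2. A VAT 1 score under 30 occurred in 5 regions lacking SAT 1 and 1 lacking VAT 2. For SAT 1 this held in 5 regions lacking VAT 1 and 5 lacking VAT 2, and for VAT 2 in 0 regions of either kind.

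The missing library often had a peak not far away. Among regions lacking SAT 1, 53 of 381 (13.9%) had a SAT 1 peak within 500 bp, and the median distance was 5641 bp. Among those lacking VAT 1, 51 of 361 (14.1%) had a VAT 1 peak within 500 bp, with a median distance of 5535 bp. Among those lacking VAT 2, 33 of 171 (19.3%, 13.7% to 26.0%) had a VAT 2 peak within 500 bp, with a median distance of 2821 bp. In regions found in all libraries, the share with a further peak of the same library within 500 bp was 14.8% for SAT 1, 14.1% for VAT 1 and 16.0% for VAT 2. The background lay inside the interval of the share in all 3 cases. Within 2000 bp the shares were 31.0% (26.4% to 35.9%) for SAT 1, 33.5% (28.7% to 38.6%) for VAT 1 and 38.6% (31.3% to 46.3%) for VAT 2. Regions found in all libraries had 28.7%, 28.3% and 29.5% in the same order, so that the intervals for VAT 1 and VAT 2 lay above their background. The median distance in regions found everywhere was 6374.5 bp for SAT 1, 6429 bp for VAT 1 and 6072 bp for VAT 2.

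The regions were spread over all 19 autosomes. A region found in all 4 libraries lay within 10000 bp of 138 of the 381 regions lacking SAT 1 (36.2%), 135 of the 361 lacking VAT 1 (37.4%) and 81 of the 171 lacking VAT 2 (47.4%), against 29.7% of all autosomal merged regions. Within 2000 bp the shares were 14.4%, 16.1% and 18.7%, against 10.9%. Regions of 1 kind rarely lay together. A region of the same kind lay within 10000 bp of 6 regions lacking SAT 1 and 2 lacking VAT 1. Of the fewer regions lacking VAT 2, 11 (6.43%) had such a neighbour. These were 5 in a cluster on chromosome 15 and pairs on chromosomes 8, 10 and 13. In the far larger kinds, the share was 32.8% for regions in all 4 libraries and 29.8% for those lacking only SAT 2.

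By chromosome, regions lacking SAT 1 were most over-represented on chromosome 12, with 24 of 381 (6.30%, 4.08% to 9.23%) against 4.01% of the regions with a SAT 2 peak. Those lacking VAT 1 were most frequent for their background on chromosome 18, with 15 of 361 (4.16%, 2.34% to 6.76%) against 3.21%. Those lacking VAT 2 stood highest over their background on chromosome 15, with 12 of 171 (7.02%, 3.68% to 11.9%) against 4.25%. Of these 12, 5 lay in 1 cluster. Chromosome 5 held more of them, 18 of 171 (10.5%) against 6.57%, a ratio to background of 1.60 beside 1.65 for chromosome 15. Chromosomes 12, 18 and 15 were picked as the highest of 19 by this ratio, and the intervals for 18 and 15 include the background.

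In windows of 1 Mb, regions lacking SAT 1 reached at most 3, on chromosome 4 from 57 to 58 Mb, on chromosome 8 from 35 to 36 Mb and on chromosome 12 from 106 to 107 Mb. Regions lacking VAT 1 reached 4 on chromosome 19 from 5 to 6 Mb, where 52 regions had a SAT 2 peak. They reached 3 on chromosome 2 from 165 to 166 Mb and on chromosome 13 from 96 to 97 Mb. Regions lacking VAT 2 reached 5 on chromosome 15 from 101 to 102 Mb, and no other window held more than 2; 2 each lay on chromosome 4 from 134 to 135 Mb and chromosome 5 from 107 to 108 Mb, tied with others.

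Regions lacking VAT 2 included the strongest of all 913. The first lay on chromosome 13 at 45652432 to 45652965 and was 534 bp wide. Its scores were 458 in SAT 1, 376 in SAT 2 and 518 in VAT 1, which are the percentiles of 98.6, 99.4 and 98.9 of those lists. VAT 2 had no peak there, and its nearest one, with a score of 109, lay 4319 bp away. The second lay on the same chromosome at 45661954 to 45663771, with scores of 344, 374 and 310 in the same order. At 1818 bp it was also the widest of all 913. VAT 2 peaks with scores of 109 and 84 lay between and beside these regions, at places where the other lists had none. A region 687 bp wide at 45671448 to 45672134 had peaks in all libraries, with scores of 142, 133, 193 and 241 for SAT 1, SAT 2, VAT 1 and VAT 2.

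A cluster of 5 regions lacking VAT 2 lay on chromosome 15 between 101100526 and 101104670. The first, at 101100526 to 101101379, was 854 bp wide and scored 303 in SAT 1, 282 in SAT 2 and 303 in VAT 1. The next, at 101102173 to 101102291, scored 113, 158 and 172. It was followed by 101103169 to 101103332 (90, 161 and 238) and 101103453 to 101103615 (294, 136 and 185). The last, at 101104428 to 101104670, scored 231, 273 and 229. Between them, at 101102593 to 101102709, only SAT 1 (146) and VAT 1 (171) had a peak.

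VAT 2 was not without peaks around this cluster. At 101096614 to 101097425, which ends 3100 bp before it, all libraries had a peak, with scores of 293 in SAT 1, 56 in SAT 2, 255 in VAT 1 and 405 in VAT 2. These are the percentiles of 91.6, 19.9, 84.4 and 95.1 of their lists. The SAT 2 peak thus ranked low at this neighbour, whereas its peaks in the cluster stood between the percentiles of 73.6 and 97.0. Behind the cluster, VAT 2 alone had a peak at 101105544 to 101106162, with a score of 86.

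**Figure D4:**
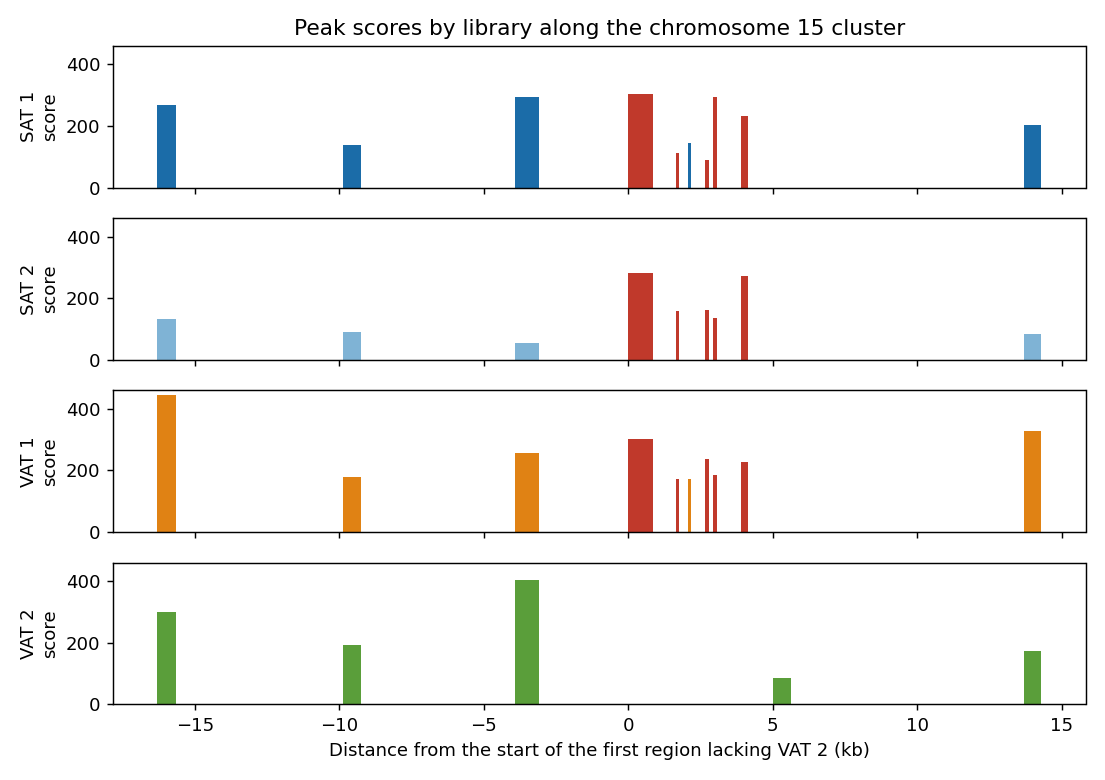
Score of the peak caller (y axis, 1 panel per library) for the regions on chromosome 15 around the cluster, by distance from the start of its first region (x axis, in kb); bars have the width of the merged region and red bars are the 5 regions lacking VAT 2. SAT 1, SAT 2 and VAT 1 show the 5 red bars, whereas VAT 2 has peaks only on either side, with scores of 405 and 86 at the nearest ones.

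Of the 8 strongest regions lacking VAT 2, 1 lay on chromosome 11. It spanned 5911367 to 5911506, was 140 bp wide and scored 290, 245 and 235 in SAT 1, SAT 2 and VAT 1. A region 4615 bp from it, at 5906243 to 5906751, had peaks in all libraries, with scores of 607 in SAT 1, 579 in SAT 2, 600 in VAT 1 and 74 in VAT 2. The VAT 2 peak stood at the percentile of 35.9 of its list, and the other 3 peaks at 99.8, 99.8 and 99.7 of theirs. On chromosome 8, the regions 125949727 to 125949873 (328, 222 and 218) and 125957929 to 125958092 (195, 332 and 206) also lacked VAT 2. At 125966780 to 125967339 on the same chromosome all libraries had a peak, at the percentiles of 79.1 in SAT 1, 38.8 in SAT 2, 86.5 in VAT 1 and 86.2 in VAT 2. The 8 strongest regions lacking VAT 2 were thus 2 on chromosome 13, 3 on chromosome 15, 1 on chromosome 11 and 2 on chromosome 8. Those on chromosome 15 were the ones starting at 101100526, 101103453 and 101104428, and the weakest peaks of the other 2 in the cluster stood at 56.8 and 45.2.

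Among regions with peaks at or above the percentile of 80 in SAT 1, SAT 2 and VAT 1, 5 of 3901 (0.128%) had no VAT 2 peak. Only 1 further region of the 3901 had a VAT 2 peak below the percentile of 50, and it was the one with 74 on chromosome 11. With the other libraries in the same role, SAT 1 was missing in 0 of 3992 (0.00%) and VAT 1 in 0 of 3989 (0.00%), and VAT 1 was below the percentile of 50 in 2. SAT 2, the library with the short list, was missing in 139 of 7329 (1.90%) and below the percentile of 50 in 753.

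The peaks of these 8 regions also had nearly the same edges in the 3 libraries. The largest difference between any of the 3 starts or any of the 3 ends was 5 bp in the first region on chromosome 13 and 10 bp in the region of 1818 bp. Over all 8 it lay between 5 and 27 bp. Whether these 8 sets of peaks mark accessible chromatin was not tested, and their position against mm9 exons was not analysed here. Among the 169 regions lacking VAT 2 with 1 peak in each of the other libraries, 30 (17.8%, 12.3% to 24.4%) had edges within 30 bp, a limit chosen after the values were seen. The background for the same 3 libraries was 3.28% in regions found everywhere.

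Edges within 30 bp were seen in 26 of 375 regions lacking SAT 1 (6.93%) against a background of 2.59%, and in 20 of 353 lacking VAT 1 (5.67%) against 2.42%. The regions lacking 1 library are narrow, and the part of width in these shares was not tested. With the 8 strongest regions left out, the share over regions lacking VAT 2 was 13.7%. Regions of 500 bp or more with 1 peak in each of SAT 1, SAT 2 and VAT 1 were also compared. Edges lay within 30 bp in 3 of 8 lacking VAT 2 (37.5%), all 3 among the strongest regions. In regions found everywhere this held for 61 of 7458 (0.818%).

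**Figure D5:**
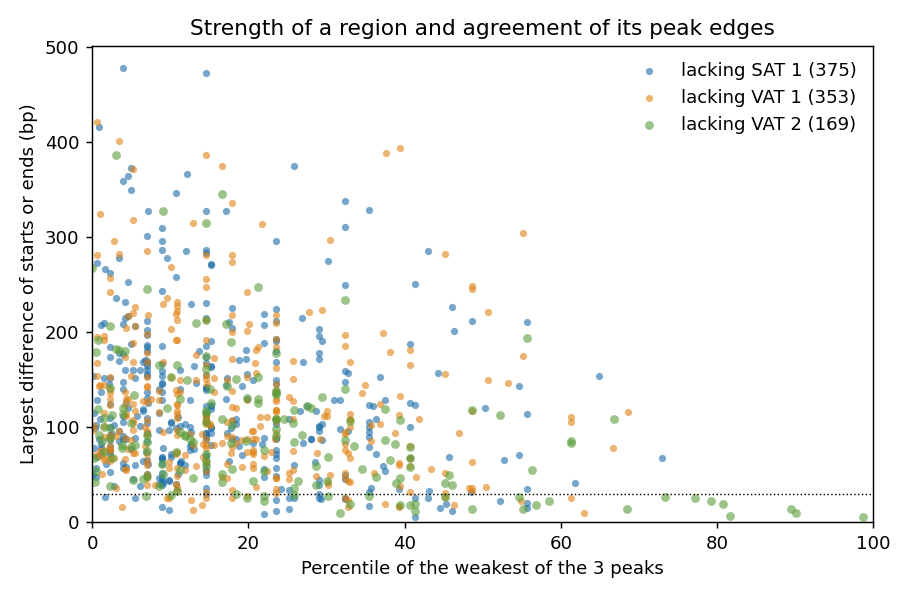
Largest difference of starts or of ends among the 3 peaks of a region (y axis, in bp) against the percentile of its weakest peak (x axis), for regions with 1 peak in each library; the dotted line marks 30 bp. Regions lacking VAT 2 fill the lower right corner, where the 8 strongest differ by 5 to 27 bp.

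The leading regions lacking SAT 1 were weaker. On chromosome 17, the first spanned 26534340 to 26534590 and had a SAT 2 score of 150, a VAT 1 score of 184 and a VAT 2 score of 238. The second lay on chromosome 13 at 43779984 to 43780413 (118, 151 and 205), and the third on chromosome 16 at 93789422 to 93789611 (181, 140 and 174). The next 5 tied at a SAT 2 score of 97. Of these, the region on chromosome 1 at 97348503 to 97348639 had a VAT 1 score of 290 and a VAT 2 score of 130. The others lay at 122993035 to 122993511 on chromosome 1 and on chromosomes 8, 12 and 13. These 8 regions were 124 to 477 bp wide, and their weakest peaks stood between the percentiles of 55.6 and 72.9.

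The widest regions lacking SAT 1 were weak in 1 or more lists. They lay on chromosome 7 at 91441626 to 91442550 (925 bp), chromosome 8 at 35164083 to 35164950 (868 bp) and chromosome 2 at 157530808 to 157531493 (686 bp). Their VAT 2 scores were 141, 154 and 163, while the SAT 2 scores were 50, 88 and 41. Width in these regions came with a VAT 2 peak that stood higher in its list than the peaks of the other libraries in theirs.

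The leading region without VAT 1, on chromosome 18, spanned 86235697 to 86235927. SAT 1 scored 230 there, SAT 2 161 and VAT 2 152. The nearest VAT 1 peak was 328953 bp away. The regions on chromosome 1 at 21295661 to 21295958 (224, 118 and 157) and 12793798 to 12793913 (130, 184 and 152) followed. The region on chromosome 6 at 75674487 to 75674627 scored 218, 107 and 130. Next came chromosome 13 at 94125279 to 94125498, chromosome 19 at 45823861 to 45824156, chromosome 4 at 141508015 to 141508465 and chromosome 17 at 25201106 to 25201748. The weakest peaks of these 8 stood between the percentiles of 55.2 and 68.6.

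The widest regions lacking VAT 1 lay on chromosome 9 at 63514407 to 63515206 (800 bp), chromosome 11 at 8606347 to 8607125 (779 bp) and chromosome 12 at 113814535 to 113815224 (690 bp). Their VAT 2 scores of 214, 96 and 119 again stood at higher percentiles than their SAT 1 scores of 50, 38 and 80. Among regions lacking VAT 2, the third widest lay on chromosome 13 at 17946396 to 17947058 (663 bp), with scores of 103, 50 and 120 and a VAT 2 peak 360 bp away.

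With equal-length lists, all 8 leading regions lacking VAT 2 stayed in their kind, against 5 of 8 for SAT 1 and 4 of 8 for VAT 1. The other leading regions dropped out because at least 1 of their peaks fell below the shorter lists' lowest rank. The 8 lacking VAT 2 were stronger, with weakest peaks at the percentile of 73.3 or above. These counts thus restate the ranks by which the regions were named. With the top 50% of each list, with merging within 500 bp and with 200 bp around the centres, 8 of 8 stayed in each kind. For the top 50% this followed from the choice of the regions, whose weakest peaks all stood above the percentile of 50. None of them had a peak of the missing library within 500 bp, so merging had little room to change their kind. The 3 widest regions held less often. With the top 50% of each list and with equal-length lists, 0 of the 3 lacking SAT 1, 0 of the 3 lacking VAT 1 and 2 of the 3 lacking VAT 2 stayed. With 200 bp around the centres 1, 2 and 3 stayed in the same order, and with merging within 500 bp 3, 3 and 2.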

How the data were processed

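Processed ATAC-seq peak lists of 4 libraries were used, grouped by the sample titles. Per the submitters' processing notes, Bowtie2 and MACS2 were used on build mm9; versions, options, duplicate handling, transposase shift and repeat filters: not given in the sources used here. Replicates were not pooled, as every library has a list of its own. Column 5 of the deposited lists, a score by the authors' caller, has no stated scale. Scores of named regions are printed as the lists give them, and ranks and comparisons between libraries use the percentile within a list (ties averaged). For several peaks of 1 library in a region the highest score was taken.

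Peaks overlapping by 1 bp were merged, and autosomal regions were classed by which library had no peak. Named regions were the 8 strongest by weakest percentile, the 3 widest and the 3 fullest windows of 1 Mb for each missing library. Edge agreement and the local neighbourhoods were added after values were seen. The members and lists were chosen with earlier results of these data known. No test was made over regions. Shares have 95% Clopper-Pearson intervals. Positions count from 1. Planned gene, marker and sequence steps need an mm9 reference and were not run. Merging was tested on simulated data and against bedtools 2.31.1; Python 3.11.15, numpy 2.4.6, pandas 2.3.3 and scipy 1.17.1 were used.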

Additional observations from a re-analysis of the deposited data

Results flagged for a closer look

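Chromosomes X and Y lie outside the autosomal rule but hold regions of the same kinds. On X, 48 of 652 regions with a SAT 2 peak (7.36%) lacked 1 other library: 26 lacked VAT 2, 15 lacked VAT 1 and 7 lacked SAT 1. The share was 4.44% on the autosomes. Of the 48, 37 lay between 120 and 123 Mb, 21 of them lacking VAT 2, and these 3 Mb also held 225 of the 652 (34.5%). On Y, 14 of 102 (13.7%) lacked 1 other library, 7 of them VAT 2, 5 VAT 1 and 2 SAT 1. These numbers were picked out because the autosomal rule leaves both chromosomes unanalysed, and no explanation was tested.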

How the results depend on the processing

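No paired analysis was possible because no result comes from a test: the regions were chosen by peak presence in these same libraries, so their values per library are descriptions. Counts were recomputed under every planned setting. Widths, weakest percentiles and shares with a nearby peak were recomputed with other merging, shorter lists and all chromosomes, and median distances were not. Of these values and the added ones on edges, 38 of 90 stayed within 1.5 times the main count or within the interval of the main value. With the top 50% of each list, 520 regions were left, of which 204 lacked SAT 1 and 199 lacked VAT 1. Their median widths were 383 bp without SAT 1, 355 bp without VAT 1 and 279 bp without VAT 2, and the weakest percentiles were 56.25, 57.38 and 55.63, which follow from the limit. The shares with a peak of the missing library within 500 bp were 7.353%, 7.035% and 5.983%. Equal-length lists gave 2726 regions, with 874, 977 and 875 lacking SAT 1, VAT 1 and VAT 2. In the same order, median widths were 418.5, 424 and 374 bp, weakest percentiles were 36.91, 36.91 and 29.45, and shares within 500 bp were 6.064%, 6.039% and 4.686%. A reciprocal overlap of 50% gave 3535 SAT 2 peaks, with 889, 838 and 1808, and 200 bp around the centres gave 416 regions lacking VAT 2. Merging within 500 bp left the shares within 500 bp at 0.0% for SAT 1, 0.0% for VAT 1 and 0.0% for VAT 2, by construction, and gave a median width of 279 bp without VAT 1. The shares with a peak of the missing library were 2.362%, 2.216% and 2.924% within 100 bp and 30.97%, 33.52% and 38.6% within 2000 bp. Edge agreement was added after seeing the data, and was 3.2%, 2.55% and 8.876% within 20 bp and 15.2%, 15.01% and 29.59% within 50 bp. With each library left out in turn there were 458 to 4116 regions lacking SAT 1, 436 to 4337 lacking VAT 1, 239 to 7818 lacking VAT 2 and 894 to 16271 in all. The highest value came each time without SAT 2, where by construction a SAT 2 peak was no longer required. VAT 2 then became the library missing most often. Without VAT 1, 921 regions lacked SAT 1, and without SAT 1, 897 lacked VAT 1. Where no construction is named, the cause was not tested. Depth is unknown, so no limit of detection can be given for a missing peak.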
